A study of Mus musculus with 6 samples.

Results

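The 10 genes described here are the heat shock factors Hsf1 and Hsf2, the small heat shock protein (HSP) genes Hspb1, Hspb8 and Cryab, the co-chaperone gene Bag3, the HSP40 genes Dnajb1, Dnajb4 and Dnaja1, and the HSP47 gene Serpinh1. They were chosen by symbol, as heat-inducible genes relevant to a photothermal treatment, out of 56748 genes with a deposited value. Each symbol matched 1 identifier in GENCODE M21, and all 10 passed the filter on low values. The RNA came from 4T1, a line of mouse mammary carcinoma with the genotype label WT, with 3 control and 3 treated samples collected at 48 h. Treated cells grew for 24 h, received 125 µg/mL of Au/MoS2/Bi2S3 particles overnight, were exposed to near-infrared (NIR) light for 8 min and were washed 24 h later. The particles are a gold, molybdenum disulfide and bismuth sulfide material that turns NIR light into heat and reactive oxygen species. Cells given particles alone or light alone were not analysed here, so heat, light and particles cannot be told apart. The labels put all 6 samples in 1 batch and describe the RNA as pooled from cells of 3 individuals. Whether replicates were separate cultures is not stated, so p-values measure only how these samples spread, and that spread may be technical.

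Heat shock factor 1 is held inactive by chaperones in unstressed cells. When proteins unfold it forms trimers, enters the nucleus and binds heat shock elements, which are inverted repeats of the letters GAA. The genes it switches on encode chaperones: small HSPs hold unfolded clients in a soluble state, HSP40 proteins deliver clients to HSP70 and stimulate its ATPase, and BAG3 releases clients from HSP70 and, with HSPB8, steers them to autophagy. HSP47 is a collagen chaperone of the endoplasmic reticulum. The heat shock response is transient in most cells, and these samples were taken a day after irradiation.

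Promoter windows from RefSeq (GRCm38.p6), which run from 250 bases before to 50 bases after a transcription start, were found for 8 of the 10 genes in 12 windows. Hsf1 and Cryab had none. Each window was searched for 2 GAA units in inverted order, GAANNTTC or TTCNNGAA. Both motifs read the same on either strand, and overlapping matches were counted. One or the other was in 15.1% of the 32851 windows of all genes, and in 5 of the 12 windows of these genes, each of a different gene. They were Hspb1, Hspb8, Bag3, Dnaja1 and Dnajb4. Hspb1 had 2 matches, starting 117 and 97 bases before the start. The match of Bag3 began 43 bases after the start and that of Hspb8 3 bases after it. Dnaja1 and Dnajb4 had 1 match each, 124 and 14 bases before one of their starts. No window of the 8 genes held 3 units in a row, either motif extended by a further inverted unit, which 0.603% of all windows did. The letters searched were not in the windows of Serpinh1, Dnajb1 and Hsf2. Printed here are the 250 bases before the start of the genes with the largest fall (Hspb1), the largest rise (Bag3) and the other fall (Serpinh1), with matches in capitals.
Hspb1: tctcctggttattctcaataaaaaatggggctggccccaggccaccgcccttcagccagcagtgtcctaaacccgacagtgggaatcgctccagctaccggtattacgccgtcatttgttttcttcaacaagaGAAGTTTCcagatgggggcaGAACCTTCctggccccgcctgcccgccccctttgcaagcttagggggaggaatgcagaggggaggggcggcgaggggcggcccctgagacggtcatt
Bag3: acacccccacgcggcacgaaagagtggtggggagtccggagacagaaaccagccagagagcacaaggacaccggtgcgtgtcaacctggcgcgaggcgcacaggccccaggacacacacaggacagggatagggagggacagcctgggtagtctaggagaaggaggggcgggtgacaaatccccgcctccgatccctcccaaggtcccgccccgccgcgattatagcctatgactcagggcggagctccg
Serpinh1: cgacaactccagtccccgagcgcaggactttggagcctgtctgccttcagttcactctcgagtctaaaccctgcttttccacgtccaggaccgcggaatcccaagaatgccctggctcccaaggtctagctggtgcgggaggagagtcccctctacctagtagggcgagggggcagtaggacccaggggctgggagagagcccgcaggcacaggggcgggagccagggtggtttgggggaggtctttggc
The Hspb1 stretch is chr5:135887669-135887918 on the plus strand, that of Bag3 is chr7:128523333-128523582 on the plus strand, and that of Serpinh1 is chr7:99353240-99353489 on the minus strand. A match describes these letters and is not evidence of a bound site.

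Depth was worked back from the deposited values, which are FPKM (fragments scaled by exon length and library size). Libraries held between 32.6 and 38.1 M (mega) reads at genes. Control libraries spread more than treated ones, with a median SD of 0.27 against 0.07 on the log2(FPKM + 1) scale over the tested genes. The mRNAs of the mitochondrial genome held between 0.00902% and 0.701% of reads in controls, highest in control 2, and between 1.21% and 1.32% in treated samples. Markers checked the cell label. Krt8, Krt18, Krt19 and Epcam of the 9 epithelial markers passed the filter and fell (Epcam passed only through the controls), from a summed 1536 to 2262 FPKM to 742 to 777 over the 9, while Cdh1 and Krt14 stayed at or below 0.114 FPKM in all 6 libraries. Of the 8 leukocyte markers 2 passed the filter and 0 were called. Adgre1 was at 0 and Ptprc at or below 0.00486 FPKM in all 6. The 8, mostly Cd68, summed to between 81.7 and 447 FPKM in controls and between 246 and 264 in treated samples. The 4 endothelial markers summed to at most 1.75 FPKM in any library, and 1 of them passed the filter, with 0 called. Of the 5 muscle markers 2 passed the filter and Des fell, while Ckm was at 0. Of the 7 fibroblast markers 3 passed the filter, and Col1a1 and Col3a1 fell. The 7 summed to between 204 and 1166 FPKM in controls and between 51.4 and 54.4 in treated samples, while Dcn stayed at or below 0.0540. These calls stand beside 27.9% of all tested genes called higher and 28.3% called lower. Summed FPKM of all tested genes also fell, from between 448138 and 530155 in controls to between 233338 and 239601 in treated samples. The part of these differences in the results was not tested.

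Of the 10 genes, 3 rose and 2 fell in treated cells, and 5 were not called. Bag3, Dnajb1 and Cryab rose, by between 1.495-fold and 2.28-fold in mean FPKM, while Hspb1 and Serpinh1 fell by 4.74-fold and 2.87-fold. The transcripts of both heat shock factors, of Hspb8, Dnajb4 and Dnaja1 did not pass the test. Calls rest on limma at 0.05 after Benjamini-Hochberg adjustment across 11118 genes, those reaching 1 FPKM in 3 or more of the libraries, on log2(FPKM + 1). Each log2 fold change compares treated with control samples, carries a standard error (SE), and understates the change of low genes on this scale. At this threshold 27.9% of all tested genes were called higher and 28.3% lower (56.1% in all), so the counts among the 10 lie near the background. The median log2 fold change of the 10 was -0.08, beside -0.01 over all tested genes. The 3 that rose and the 2 that fell were also those whose groups did not overlap, beside 33.6% of all genes separate and higher and 34.1% separate and lower (67.7% in all). In these bulk samples fewer cells carrying a transcript and less of it per cell cannot be told apart.

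**Figure D1:**
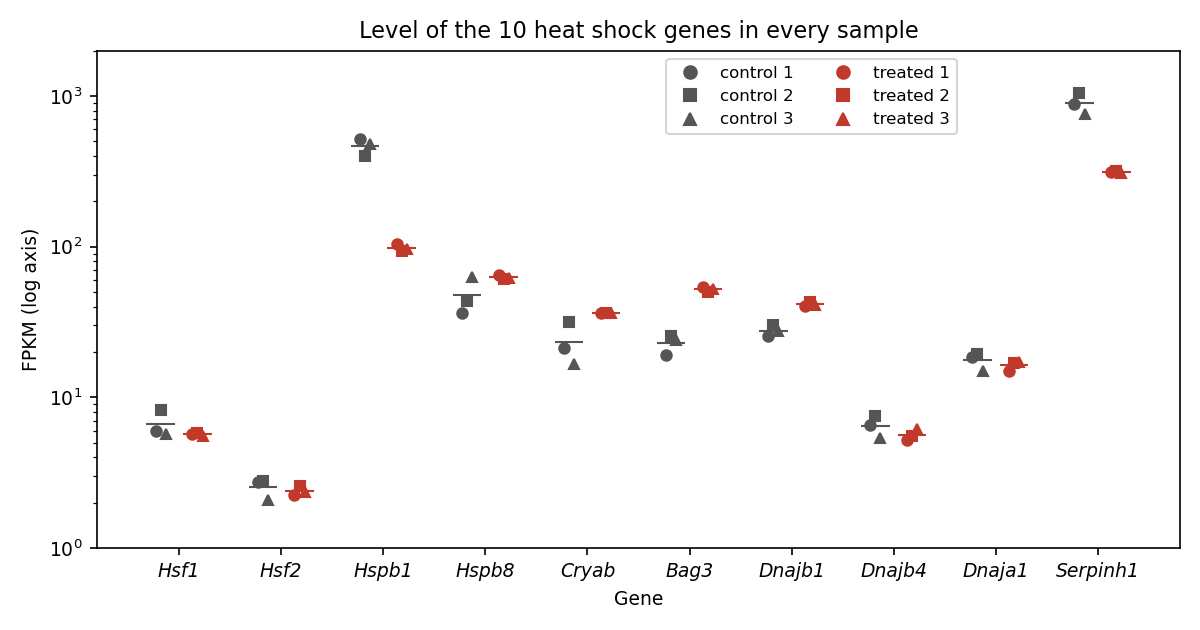
FPKM (log axis) of each of the 10 genes in the 3 control (grey) and 3 treated (red) samples, with lines at the group means. Hspb1 and Serpinh1 lie lower in every treated sample, Bag3, Dnajb1 and Cryab lie higher, and the groups of the other 5 overlap.

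Hsf1 encodes the main activator of the heat shock response. Control samples 1, 2 and 3 held 5.98, 8.27 and 5.72 FPKM, against 5.74, 5.78 and 5.57 FPKM for treated samples 1, 2 and 3. Control 2 stood above the other 5 samples, which lay close together, and the groups overlapped. Its log2 fold change came to -0.18 ± 0.15 SE (95% interval -0.54 to 0.18, limma adjusted p = 0.339). Hsf2 encodes a related factor that can form mixed trimers with HSF1. Its level was the lowest of the 10, at 2.75, 2.78 and 2.08 FPKM in controls and 2.23, 2.56 and 2.35 in treated samples. Control 3 was the lowest sample and the groups overlapped (log2 fold change -0.06 ± 0.12 SE, 95% interval -0.35 to 0.23, limma adjusted p = 0.687). The activity of the factors, set mostly by protein state, was not measured.

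Hspb1 (chromosome 5, 135887919 to 135889563, plus strand) encodes HSP27, a small HSP that also binds actin and limits apoptosis. Control samples 1, 2 and 3 held 518, 398 and 479.7 FPKM, against 104, 93.0 and 96.8 FPKM for treated samples 1, 2 and 3. Every treated sample lay far below the lowest control, control 2. The mean went from 465 ± 61.0 (SD, n = 3) to 98.1 ± 5.83, a log2 fold change of -2.23 ± 0.15 SE (limma adjusted p = 0.000253). It lay at percentile 1.28 of the log2 fold changes of all tested genes. Hspb1 stayed called in all 14 alternatives tested, with a log2 fold change of -0.72 once the trend on GC content, length and level was removed.

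Hspb8 (chromosome 5, 116408491 to 116422864, minus strand) encodes the small HSP that partners BAG3. Control samples 1, 2 and 3 held 36.3, 43.6 and 62.7 FPKM, against 64.9, 61.2 and 61.7 FPKM for treated samples 1, 2 and 3. Control 3 lay within the treated range while the other controls lay below it. Its log2 fold change came to 0.43 ± 0.21 SE (limma adjusted p = 0.125). Without control 3 Hspb8 was called higher at 0.64 (limma adjusted p = 0.00366). It was also called higher with scaling by library size (1.16), with quantile normalization (1.18) and with the trend removed (1.32).

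Cryab (chromosome 9, 50751325 to 50756636, plus strand) encodes alpha B-crystallin, a small HSP of lens and muscle that stress induces elsewhere. It stood at 21.3, 31.6 and 16.7 FPKM in controls and at 36.3, 36.4 and 36.3 in treated samples. The treated values were nearly equal, and control 2 came close to them. Its log2 fold change came to 0.67 ± 0.23 SE (limma adjusted p = 0.0430), and 0.20 against control 2 alone. The call was lost without control 1 (limma adjusted p = 0.121), control 3 (0.0504), treated 1 (0.112), treated 2 (0.110) or treated 3 (0.111), and with no filter on low values (0.0896). Cryab and Hspb2 (chromosome 9, 50751078 to 50752354, minus strand) overlap on opposite strands over 252 exon bases, which is 17.0% of the exon length of Cryab. Without a stated strand setting reads there cannot be assigned to one gene. Hspb2, another small HSP gene, stood at 0.536 FPKM or less in every library.

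Bag3 (chromosome 7, 128523616 to 128546981, plus strand) rose the most of the 10. Control samples 1, 2 and 3 held 19.0, 25.5 and 24.0 FPKM, against 54.2, 49.7 and 52.3 FPKM for treated samples 1, 2 and 3. The lowest treated sample was well above the highest control. Its log2 fold change came to 1.16 ± 0.14 SE (limma adjusted p = 0.00105), and 1.00 against control 2 alone. Bag3 was called higher in all 14 alternatives tested. Its log2 fold change reached 1.89 with scaling by library size and also with the trend removed, and 1.77 with quantile normalization. Each control library held between 1438 and 2072 reads of Bag3 and each treated one between 5624 and 6244.

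Dnajb1 (chromosome 8, 83608193 to 83612653, plus strand) encodes the classical heat-inducible HSP40, which also feeds back on HSF1. Control samples 1, 2 and 3 held 25.5, 30.0 and 27.7 FPKM, against 40.5, 42.6 and 41.3 FPKM for treated samples 1, 2 and 3. Spread was small within both groups and they did not overlap. Its log2 fold change came to 0.57 ± 0.11 SE (limma adjusted p = 0.00591), and it was called in all 14 alternatives. It was 1.29 with scaling by library size, 1.15 with quantile normalization and 1.18 with the trend removed.

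The other 2 HSP40 genes did not pass the test. Dnajb4, which encodes a close relative of DNAJB1, was at 6.54, 7.45 and 5.35 FPKM in controls and 5.19, 5.53 and 6.14 in treated samples. Treated 1 lay below all controls and the remaining samples overlapped (log2 fold change -0.16 ± 0.14 SE, limma adjusted p = 0.353). Dnaja1, a type A HSP40 with a zinc finger, was at 18.4, 19.4 and 15.0 FPKM in controls and 15.0, 16.8 and 17.1 in treated samples. Its groups overlapped, with a log2 fold change of -0.10 ± 0.13 SE (95% interval -0.42 to 0.22, limma adjusted p = 0.553). Exons of Dnaja1 and of Smu1, on the opposite strand, overlap over 608 bases, 7.05% of the exon length of Dnaja1. Smu1, a splicing gene, stood between 26.5 and 35.1 FPKM, so reads in the overlap cannot be assigned to one gene. The pseudogene Dnaja1-ps was listed at 0 in all 6 libraries.

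Serpinh1 (chromosome 7, 99345376 to 99353239, minus strand) had the highest level of the 10 in every sample. Control samples 1, 2 and 3 held 882, 1040.4 and 762 FPKM, against 313, 316 and 308 FPKM for treated samples 1, 2 and 3. The groups were far apart, and the controls ranged more widely than the treated samples. The mean went from 895 ± 139.8 (SD, n = 3) to 312 ± 4.23 FPKM, a log2 fold change of -1.50 ± 0.16 SE (limma adjusted p = 0.00081). The call was lost with quantile normalization (-0.25, limma adjusted p = 0.191) and with the trend on GC content, length and level removed (-0.03, 0.89). With scaling by library size it was -0.76 (limma adjusted p = 0.0151).

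FPKM here is per summed length of all annotated exons of a gene, so orders, shares and ratios between genes depend on the annotation. Dnaja1, with 8629 exon bases, had more reads than Dnajb1, with 3204, in every control, yet a lower FPKM. In controls the order of mean FPKM was Serpinh1, Hspb1, Hspb8, Dnajb1, Cryab, Bag3, Dnaja1, Hsf1, Dnajb4, Hsf2. The neighbours from Dnajb1 to Dnaja1 overlapped in range, as did Hsf1 and Dnajb4, and the other neighbours were separate. In treated samples Bag3 moved to the fourth place, above Dnajb1 and Cryab. There Hsf1 and Dnajb4 were the neighbours that overlapped. All tested genes summed to between 448138 and 530155 FPKM in controls and between 233338 and 239601 in treated samples. Beside that, the 10 genes summed to between 1401 and 1607 FPKM in controls and between 627 and 641 in treated samples. Serpinh1 and Hspb1 held a mean 58.9% and 30.9% of this sum in controls, and 49.3% and 15.5% in treated samples. Bag3 went from 1.51% to 8.23% and Hspb8 from 3.18% to 9.90% of it. A share rises when the sum falls. The shares of Hsf1 (0.437% to 0.900%), Hsf2 (0.167% to 0.377%) and Dnaja1 (1.16% to 2.58%) rose as well, though their mean FPKM did not.

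Ratios between genes of the same sample do not change when a library is multiplied by 1 factor, though quantile normalization and trend removal do change them. Among 7 ratios chosen with the results known, and therefore given without a test, 6 did not overlap between groups. Of all tested single genes 67.7% did not overlap either, and the share for other pairs was not worked out. The count is therefore no result about these genes. The level of Hspb1 was 14.3, 9.13 and 7.65 times that of Hspb8 across the controls and 1.61, 1.52 and 1.57 times across the treated samples. Against Cryab it was 24.3, 12.6 and 28.8 times in controls and between 2.55 and 2.88 times in treated samples. All controls were above all treated samples in both ratios. The level of Dnajb1 was 1.39, 1.55 and 1.85 times that of Dnaja1 in controls and 2.70, 2.54 and 2.41 times in treated samples. Against its relative Dnajb4 it was between 3.90 and 5.19 times in controls and between 6.73 and 7.82 times in treated samples. The ratios of Dnajb1 to Dnaja1 and to Dnajb4 were both higher in every treated sample than in every control. Ratios of Dnajb1 to HSP40 genes other than Dnaja1 and Dnajb4 were not worked out, and the cause of the change was not tested. Hspb8 stood at 1.90, 1.71 and 2.62 times Bag3 in controls and at 1.197, 1.23 and 1.18 times in treated samples. The ratio of Hsf1 to Hsf2 overlapped, with means of 2.63 and 2.40.

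**Figure D2:**
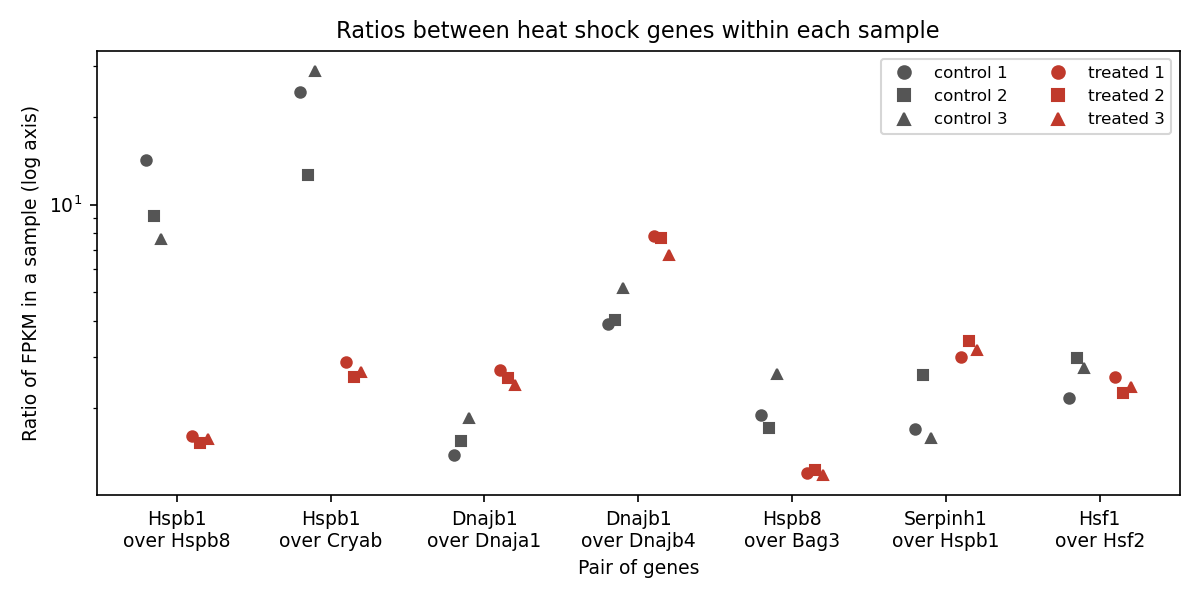
Ratio of FPKM (log axis) between pairs of the 10 genes within each control (grey) and treated (red) sample. The ratio of Hspb1 to Hspb8 fell from between 7.65 and 14.3 to between 1.52 and 1.61, and the ratio of Hsf1 to Hsf2 overlapped.

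Direction for several of the genes depended on how libraries were scaled. The deposited values hold the typical gene level between groups, and with scaling by library size alone the median log2 fold change of all tested genes was 0.60. Relative to that median Bag3 was at 1.29, Cryab at 0.79, Dnajb1 at 0.69 and Hspb8 at 0.56, while Hspb1 was at -2.08 and Serpinh1 at -1.36. Hsf1, Hsf2 and Dnajb4 were between -0.14 and -0.12 and Dnaja1 at 0.01. In this scaling 7 of the 10 were called higher, beside 54.3% of all genes, and 2 lower, beside 10.3% (64.6% in all). The 7 included Hsf2 (0.47), Dnajb4 (0.48) and Dnaja1 (0.61), whose log2 fold changes were below 0 under the deposited scaling. Hsf1 also turned, to 0.46, and was not called (limma adjusted p = 0.0548). With quantile normalization 4 were higher, beside 27.2% of all genes, and 2 lower, beside 24.5% (51.7% in all). With the trend removed 4 genes were higher (beside 22.2% of all genes) and 3 lower (beside 23.2%, and 45.4% in all), the lower ones being Hspb1, Hsf2 at -0.73 and Dnajb4 at -0.53. Under all 4 scalings Bag3, Dnajb1 and Cryab were called higher and Hspb1 was called lower.

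**Figure D3:**
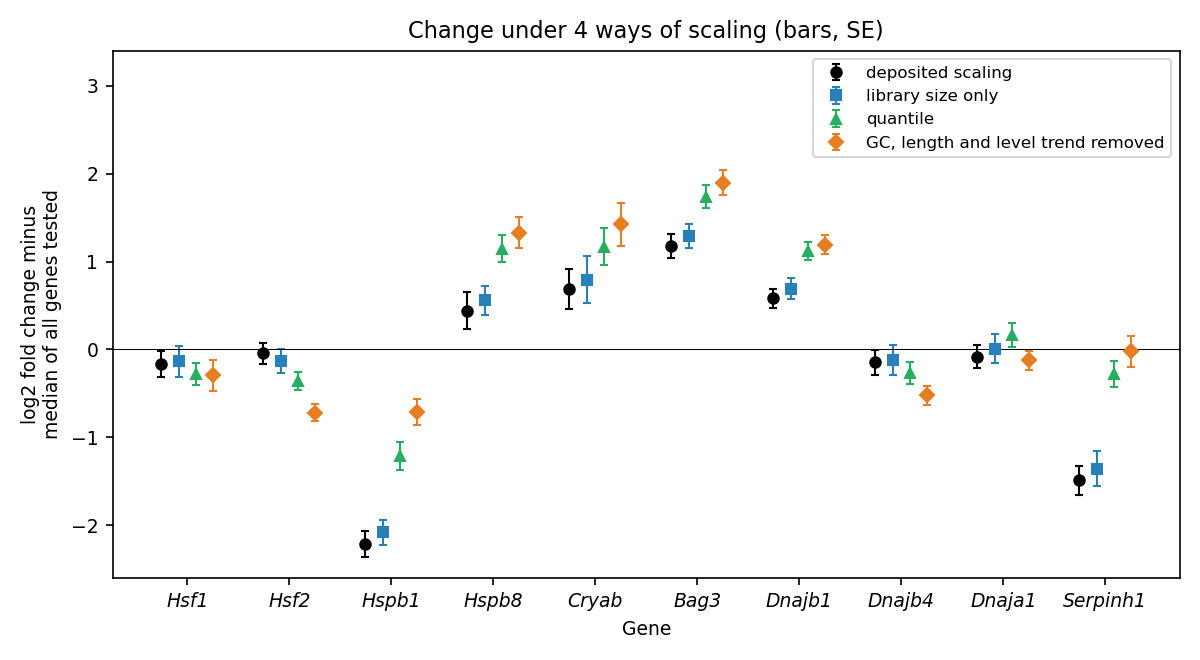
Log2 fold change of each of the 10 genes less the median of all tested genes, under 4 scalings, with SE bars. Bag3, Dnajb1, Cryab and Hspb8 are above 0 and Hspb1 is below 0 under each, while Serpinh1 runs from -1.49 to -0.02.

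The log2 fold change fell with level across all genes, which bears on these genes because they differ in level. Among the most abundant 10% of tested genes, which hold Serpinh1, Hspb1 and Hspb8, the median log2 fold change was -0.996 and 68.6% were called lower. Hspb1 lay at -2.23 and Serpinh1 at -1.50, below this median, and Hspb8 at 0.43 above it. In the next 10%, which holds Bag3, Dnajb1 and Cryab, the median was -0.53 and 6.92% were called higher. Hsf1 and Dnajb4 were in a 10% bin with a median of 0.20, and Dnaja1 (-0.10) lay above the median of its bin (-0.27). The part of level in each change was not tested apart from the trend removal above.

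**Figure D4:**
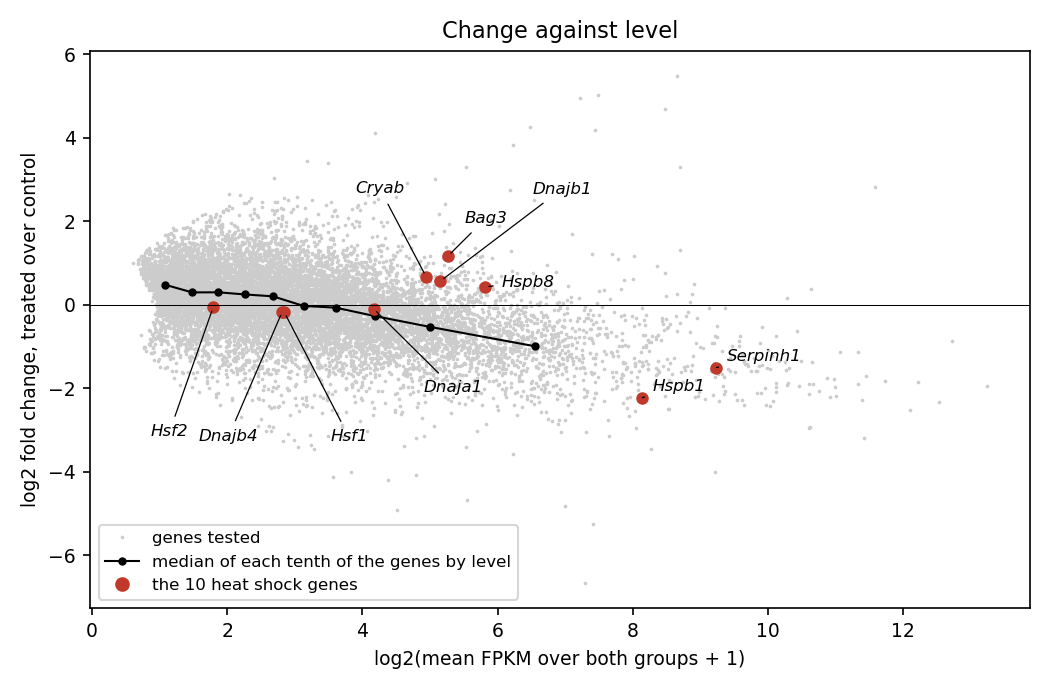
Log2 fold change against log2(mean FPKM + 1) for all 11118 genes tested (grey), with the median of each 10% of genes by level (black) and the 10 heat shock genes (red). The black line runs from 0.48 to -0.996, and Bag3, Dnajb1, Cryab, Hspb8 and Dnaja1 lie above it.

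Other members of the same families moved both ways. Counts here and in the lists below stand beside 27.9% of all tested genes called higher and 28.3% called lower. These shares were 54.3% and 10.3% with scaling by library size, 27.2% and 24.5% with quantile normalization, and 22.2% and 23.2% with the trend removed. Of the other small HSP genes, 2 of 8 passed the filter. Hspb11, an intraflagellar transport gene named with this family, fell from 15.8 ± 1.36 (SD, n = 3) to 7.13 ± 0.481 FPKM (log2 fold change -1.05, limma adjusted p = 0.000751), also under the 3 other scalings. Hspb6 was at 1.52, 2.44 and 0.427 FPKM in controls and 2.62, 3.09 and 3.45 in treated samples (limma adjusted p = 0.0702). Cryaa and Hspb3 were at 0 in all 6 libraries.

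Of the other heat shock factor genes and regulators, 2 of 6 passed the filter and both fell. Hsbp1, whose small coiled-coil product binds HSF1 trimers, went from 71.9 ± 12.3 (SD, n = 3) to 40.5 ± 4.27 FPKM (limma adjusted p = 0.00736). Hsf4, a factor of lens development, went from 9.33 ± 1.90 to 4.55 ± 0.379 FPKM (limma adjusted p = 0.0043). Neither call held with scaling by library size, and that of Hsbp1 was also lost with quantile normalization and with the trend removed. Of 14 tested regulators of HSF1, 2 rose, 1 fell and 11 were not called (median log2 fold change 0.09). With scaling by library size 11 were higher and 0 lower, with quantile normalization 3 and 0, and with the trend removed 3 and 2. Ep300, the acetyltransferase p300 that acetylates HSF1, rose from 2.98 to 9.95 FPKM (SD 0.374 in controls) (log2 fold change 1.46, limma adjusted p = 0.000311), under all 4 scalings.

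In the BAG family, whose members share a domain that binds HSP70, 2 of the 5 other genes rose and 2 fell. Bag2, an inhibitor of the ubiquitin ligase CHIP, was at 2.41, 3.73 and 1.56 FPKM in controls and 11.4, 9.99 and 12.1 in treated samples. That is a log2 fold change of 1.81 ± 0.23 SE (limma adjusted p = 0.00134), and it was called under all 4 scalings. Bag5 rose from 3.64, 2.30 and 4.73 to 6.68, 6.92 and 7.39 FPKM (limma adjusted p = 0.0146), a call lost without treated 3 (0.0571). Bag1, a nucleotide exchange factor that couples HSP70 to the proteasome, fell from 232 ± 85.0 to 76.7 ± 1.89 FPKM (limma adjusted p = 0.00447). Bag6, which guards tail-anchored proteins, fell from 91.4 ± 9.59 to 59.3 ± 3.62 FPKM (limma adjusted p = 0.00778). Bag6 had a log2 fold change above 0 and was not called under the 3 other scalings, and Bag1 was not called with quantile normalization or with the trend removed.

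Of the 14 other DNAJA and DNAJB genes, 8 passed the filter, 2 rose and 3 fell. Dnaja3, the HSP40 of mitochondria, rose from 9.06 ± 2.08 to 15.7 ± 0.592 FPKM, and Dnajb12, of the endoplasmic reticulum membrane, rose from 9.23 ± 1.06 to 15.2 ± 0.386. Both were called under all 4 scalings (limma adjusted p = 0.0118 and 0.00377 with the deposited one). Dnajb11, an HSP40 of the endoplasmic reticulum lumen, fell from 52.9 ± 7.95 to 21.5 ± 1.73 FPKM (log2 fold change -1.25, limma adjusted p = 0.000992), also under all 4. The other falls were Dnajb2 (12.7 to 8.01 FPKM) and Dnajb6 (42.9 to 23.1 FPKM), which were not called with scaling by library size. Dnajb6 was not called with quantile normalization, with the trend removed, without control 1, or without any 1 treated sample either. Dnajb2 was not called without treated 1 (limma adjusted p = 0.0527).

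Of 28 tested heat shock response genes outside the 10, 5 rose, 13 fell and 10 were not called. Their median log2 fold change was -0.59, beside -0.01 over all genes. With quantile normalization 7 were higher and 4 lower, and with the trend removed 7 and 5, with a median of 0.01. With scaling by library size 8 were higher and 6 lower, beside 54.3% and 10.3% of all tested genes. The median was then 0.14, below the 0.60 of all genes. Hspa1b, the inducible HSP70 gene, was at 23.2, 32.4 and 18.1 FPKM across the controls and at 50.3, 49.2 and 43.0 across the treated samples. Every treated sample was above every control (log2 fold change 0.96 ± 0.22 SE, limma adjusted p = 0.0108). Hspa1a, its near-identical neighbour, did not pass the filter, at 0 to 0.140 FPKM in controls and 0.389 to 0.562 in treated samples. The split of reads between these copies is uncertain. Hspa2, an HSP70 gene known from testis, rose from 0.891 ± 0.261 (SD, n = 3) to 5.11 ± 0.446 FPKM (log2 fold change 1.70, limma adjusted p = 0.000344). Its controls stood at 0.737, 1.19 and 0.742 FPKM, so it passed the filter only through the treated samples, where it is high, and a difference was bound to be seen. P4ha1, a collagen prolyl hydroxylase subunit, fell from 331 ± 30.5 to 81.0 ± 1.41 FPKM (log2 fold change -2.01, limma adjusted p = 0.000226), under all 4 scalings.

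P4ha1 also belongs to the collagen folding genes, the partners of HSP47. Of 15 such genes, all tested, 11 fell and 2 rose, beside 28.3% and 27.9% of all tested genes. Their median log2 fold change was -1.12. Among the most abundant 10% of all tested genes 68.6% were called lower, and in this count the 15 were not matched by level. The counts were 8 lower and 4 higher with scaling by library size, 9 and 3 with quantile normalization and 8 and 3 with the trend removed (median -0.53). Mia3, which loads collagen into transport vesicles, rose from 8.14 ± 1.31 to 12.4 ± 0.624 FPKM (limma adjusted p = 0.0142), a call lost without treated 2 (0.0577) or treated 3 (0.0644).

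Of 11 tested partners of BAG3 and HSPB8 in chaperone-assisted autophagy, 4 rose, 3 fell and 4 were not called (median log2 fold change -0.21). With scaling by library size 7 were higher and 0 lower, beside 54.3% and 10.3% of all tested genes. The median turned to 0.42 with quantile normalization (5 higher, 0 lower) and to 0.38 with the trend removed (5 higher, 1 lower). Ywhag, a 14-3-3 gene, rose from 33.7 ± 0.993 to 58.6 ± 0.773 FPKM (log2 fold change 0.78, limma adjusted p = 0.00125), under all 4 scalings. Map1lc3b, which encodes the autophagosome protein LC3B, fell from 41.7 ± 8.03 to 23.3 ± 0.171 FPKM (limma adjusted p = 0.00677), a call lost under the 3 other scalings.

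**Figure D5:**
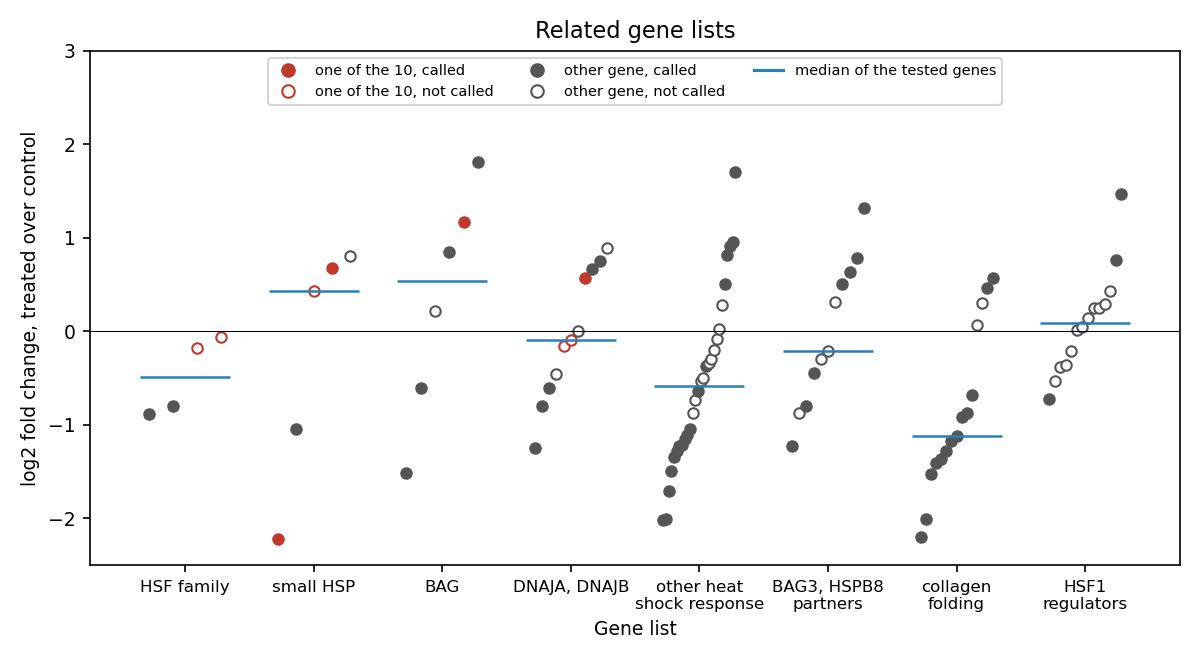
Log2 fold change of each tested gene of 8 related lists, with filled points for called genes, red for the 10 heat shock genes and a blue line at the median of each list. The medians run from -1.12 in collagen folding genes to 0.53 in the BAG family.

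The genes whose log2(FPKM + 1) followed a member most closely over the 6 samples were looked up among 9947 named genes. With 2 separate groups this likeness mostly reflects the group difference, and it is given as a description. For Bag3 they were Sesn2, Cul4a and Smad5 (Pearson r between 0.9983 and 0.9989), and for Dnajb1 Ttll4, Skp2 and Rab35 (0.9976 to 0.9992). For Hspb1 they were Pdia4, Nfkb2 and Pdxdc1 (0.999 each). For Hsf1, which peaked in control 2, they were Pcgf2, Zyx and Cnih4 (0.991 to 0.994), and Pcgf2 stood at 26.4 FPKM in control 2 and between 9.89 and 12.7 in the other samples.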

How the data were processed

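RNA was sequenced as paired 150 bp reads from poly-T selected libraries (3 µg of RNA, fragments of 150 to 200 bp), per the labels' protocols. The authors deposited 1 FPKM value per gene and sample, per the file headers. The aligner, counter, build, annotation and strand setting stay not given in the sources used here. Names, coordinates and exon lengths came from GENCODE M21 (GRCm38), which may differ from the authors' annotation. FPKM times exon length fell on whole multiples of 1 read: between 92.5% and 93.4% of values under 200 reads were whole within 0.02 of a read, which gave the depth. Reads cover counting error only, since PCR copies are not independent molecules. Deposited values had median-of-ratios factors of 1.01 in every library, so they had been scaled between libraries.

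Values as log2(FPKM + 1) were tested by limma (3.58.1, R 4.3.3), its prior variance following the mean level. The procedure was tested on simulated data in which both groups had the same spread and few genes changed. The data here differ on both points, so that test does not cover them. Alternatives changed the pseudocount (0.1), the filter (none, or 5 FPKM), the scaling (library size, quantile, or a trend on GC content, length and level removed), the weights and the replicate term, or left out each sample with the genes tested held fixed. Libraries of a group differed by more than counting noise and were counted separately. The genes, lists and ratios were chosen with earlier results of these data known, and lists carry counts and medians only. Named outside the 10 are genes called in their families and, in other lists, the smallest p in each direction, with Hspa1a, Hspa1b, overlapping genes, and the 3 genes most like each of Hsf1, Bag3, Hspb1 and Dnajb1. Hspb6, Cryaa, Hspb3 and single cell type markers were named after their values were seen. One gene that this rule names is not reported here.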

Additional observations from a re-analysis of the deposited data

How the results depend on the processing

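Scaling by library size alone gave 6032 genes higher and 1149 lower against 3099 and 3141, and 7 of the 10 heat shock genes were higher against 3. Under it Hsf1 (0.46), Hsf2 (0.47), Dnajb4 (0.48) and Dnaja1 (0.61) turned from below to above 0, where the median of all genes was 0.60. With at least 5 FPKM in 3 libraries 1385 genes were higher and 2516 lower of 6687 tested, the cause of this shift was not tested, and Hsf2 was left out. With samples left out in turn, genes higher ranged from 2279 to 3634 and genes lower from 2140 to 3778, and of the 10 genes 2 to 3 were higher and 2 lower. Same-numbered samples did not deviate together (r = -0.05, -0.11 and -0.14 across genes). Other combinations reached 0.13 (control 2 with treated 3). Treated samples spread little, so these values cannot exclude that the numbers pair the samples. With the replicate number as a block 2618 genes were higher and 2669 lower, 2 and 2 of the 10, and Cryab was not called (limma adjusted p = 0.0570). A comparison with control 2 alone was added after the data were seen and has no test. Counting error of the 10 genes was between 0.352% and 4.62% of their reads in a library, taking each read as independent. Most fragments gave 2 paired reads, so these values understate the error.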
